A study of Homo sapiens with 8 samples.

Results

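The cell cycle genes examined here were 47 genes of S phase and of G2/M, taken by name from the 25369 gene symbols of an RNA-seq table. Of these, 16 act in S phase (MCM2 to MCM7, CDC6, CDT1, CDC45, GINS2, PCNA, RRM1, RRM2, TYMS, TK1 and UHRF1), 7 regulate entry into S phase or the programmes around it (CCNE1, CCNE2, E2F1, E2F2, MYBL2, FOXM1 and GMNN) and 24 act in mitosis. The mitotic genes were CCNA2, CCNB1, CCNB2, CDK1, CDC20, UBE2C, AURKA, AURKB, PLK1, BUB1, BUB1B and BIRC5, and KIF11, KIF20A, KIF23, CENPA, CENPE, CENPF, TPX2, NUSAP1, PRC1, HMMR, TOP2A and MKI67. All 47 were listed and all 47 passed the filter on low values. Cells of MCF10A, a non-malignant, spontaneously immortalized human mammary epithelial line used at passages 8 to 15, were encapsulated in 3D in 4 hydrogels and harvested on day 7, with 2 libraries per gel. Soft and stiff IPNs are interpenetrating networks of reconstituted basement membrane (rBM) and alginate that differ in calcium crosslinking. Soft col:rBM gels combine collagen-1 with rBM, and stiff col gels are dense collagen-1 with no rBM, so that stiff col against stiff IPN changes col-1, rBM, alginate and calcium together. No gene was altered and no drug was given in any group.

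A dividing cell licenses its replication origins in G1 by loading the MCM helicase, copies its DNA in S phase, and separates the copies in mitosis. The genes for the first tasks are under the control of E2F factors and peak around the G1 to S transition, and those for mitosis are transcribed later, in G2 and M, through CHR and CCAAT elements read by the MuvB complexes and NF-Y. In resting cells both sets are held down by the DREAM complex, and in the breast epithelium, as in other tissues, their transcripts serve as markers of proliferating cells. In bulk samples such as these, fewer cycling cells and less RNA per cycling cell cannot be told apart.

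The members were chosen for their roles, and their promoters show how the S phase and mitotic genes differ in sequence. RefSeq promoters, each 250 bases before and 50 after the gene's start, were matched for 14 of 16 S phase members, 20 of 24 mitotic members and 5 of 7 G1/S regulators. Exact letters were searched on both strands: TTTGAA for CHR, CCAAT for the CCAAT box, and TTTCCCGC, TTTCGCGC, TTTGCCGC or TTTGGCGC for E2F. The bases below are the 200 before each gene's start in GRCh38.p14, in the direction of transcription, with motif letters in capitals. MCM3, MCM6, UHRF1 and E2F2 are shown for the genes called between replicates, E2F2 and UHRF1 with the largest differences of their role, and CCNB2, PLK1, MKI67 and KIF23 for the mitotic genes, of which MKI67 and KIF23 were called.
MCM3 (chr6:52284743-52284942, minus strand): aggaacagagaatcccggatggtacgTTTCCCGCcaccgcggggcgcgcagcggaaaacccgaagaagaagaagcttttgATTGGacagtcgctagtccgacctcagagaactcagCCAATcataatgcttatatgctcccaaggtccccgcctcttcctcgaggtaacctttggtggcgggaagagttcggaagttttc
MCM6 (chr2:135876444-135876643, minus strand): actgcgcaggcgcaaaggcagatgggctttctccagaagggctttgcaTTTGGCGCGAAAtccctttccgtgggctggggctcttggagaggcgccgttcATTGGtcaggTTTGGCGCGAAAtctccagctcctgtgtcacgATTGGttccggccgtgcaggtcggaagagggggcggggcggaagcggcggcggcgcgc
UHRF1 (chr19:4909301-4909500, plus strand): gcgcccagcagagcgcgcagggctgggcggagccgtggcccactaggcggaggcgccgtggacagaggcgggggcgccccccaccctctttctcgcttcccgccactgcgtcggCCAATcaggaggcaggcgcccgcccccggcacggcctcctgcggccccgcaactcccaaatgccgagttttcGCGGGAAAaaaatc
E2F2 (chr1:23531234-23531433, minus strand): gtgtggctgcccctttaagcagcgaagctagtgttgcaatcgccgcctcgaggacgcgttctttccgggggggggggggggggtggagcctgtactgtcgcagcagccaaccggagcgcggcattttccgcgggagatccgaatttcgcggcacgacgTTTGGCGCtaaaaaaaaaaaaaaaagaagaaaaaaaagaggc
CCNB2 (chr15:59104946-59105145, plus strand): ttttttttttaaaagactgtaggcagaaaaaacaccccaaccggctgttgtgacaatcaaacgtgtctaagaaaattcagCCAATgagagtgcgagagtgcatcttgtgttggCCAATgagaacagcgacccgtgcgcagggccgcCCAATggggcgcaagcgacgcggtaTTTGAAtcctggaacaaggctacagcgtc
PLK1 (chr16:23678689-23678888, plus strand): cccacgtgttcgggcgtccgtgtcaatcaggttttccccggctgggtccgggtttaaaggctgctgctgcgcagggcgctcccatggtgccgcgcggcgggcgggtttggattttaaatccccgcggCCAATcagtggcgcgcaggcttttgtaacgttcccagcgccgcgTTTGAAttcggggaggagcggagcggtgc
MKI67 (chr10:128126424-128126623, minus strand): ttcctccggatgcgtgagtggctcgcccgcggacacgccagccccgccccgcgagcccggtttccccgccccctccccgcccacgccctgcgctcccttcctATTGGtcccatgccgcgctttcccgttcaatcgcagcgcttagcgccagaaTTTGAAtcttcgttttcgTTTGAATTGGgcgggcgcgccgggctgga
KIF23 (chr15:69414149-69414348, plus strand): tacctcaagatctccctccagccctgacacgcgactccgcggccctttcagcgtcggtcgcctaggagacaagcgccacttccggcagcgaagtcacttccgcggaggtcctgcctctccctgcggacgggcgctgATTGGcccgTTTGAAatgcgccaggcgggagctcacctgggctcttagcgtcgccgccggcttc

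The capitals of MCM3, MCM6, UHRF1 and E2F2 include E2F letters and no CHR, and those of CCNB2, PLK1, MKI67 and KIF23 include CHR and no E2F letters. In MCM6 each of the 2 E2F blocks reads as a match on both strands, so that its 4 matches are 2 overlapping pairs, and in MKI67 a CHR match overlaps a CCAAT box on the other strand by 1 base. Over all members, 10 of 14 S phase promoters held an E2F match (71.4%) against 3 of 20 mitotic promoters (15%) and 5.35% of the 9791 promoters of genes tested. A CHR match was present in 14 of 20 mitotic promoters (70%), 1 of 14 S phase promoters (7.14%) and 9.66% of those of genes tested. CCAAT boxes were common to both, in 71.4% of S phase and 90% of mitotic promoters, against 36.4% of those of genes tested. Among the G1/S regulators, 2 of 5 held an E2F match and 0 of 5 a CHR. Over all 27305 RefSeq promoters the shares were 3.33% for E2F, 15.4% for CHR and 35.7% for CCAAT. A match describes letters in this window, and a missing match says nothing about a factor.

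**Figure D1:**
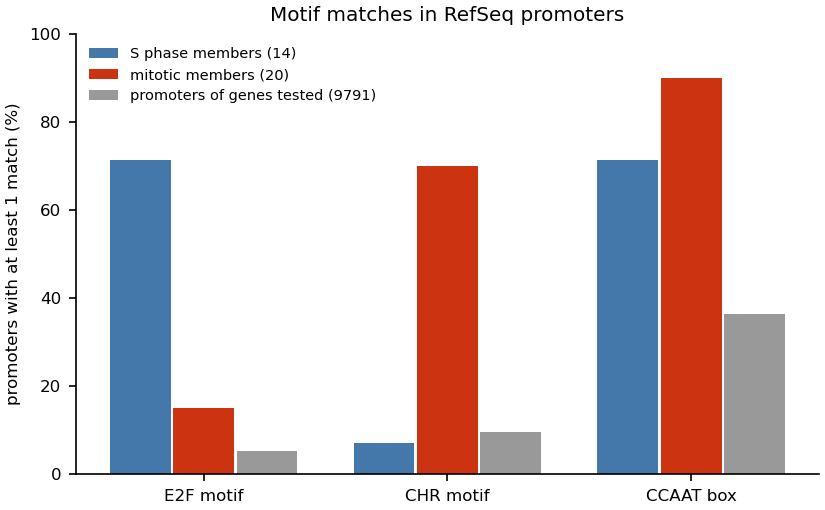
Bars give the percentage of RefSeq promoters with at least 1 exact match of each motif among 14 S phase members, 20 mitotic members and the 9791 promoters of genes tested. E2F letters stand in 71.4% of S phase and 15% of mitotic promoters, CHR letters in 7.14% and 70%.

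The libraries held about 13065018 to 18588896 reads on genes, and 3 reads correspond to 2.4 to 3.7 normalized counts, the unit of all values below (read counts scaled by 1 factor per library). The normalized counts of the members ran from 4 for E2F2 in stiff col replicate 1 to 3659 for TOP2A in soft IPN replicate 2. Per kilobase of exon and averaged over the 8 libraries, PCNA had the highest level at 966.0 normalized counts per kilobase, ahead of CCNB1 at 625.0 and UBE2C at 609.0. The lowest were E2F2 at 6.18, CCNE2 at 16.7 and CENPE at 30.4 on the same scale. The label of the cells was checked with 7 epithelial markers (KRT5, KRT14, KRT17, KRT18, TP63, CDH1 and EGFR), which summed to 21184 to 51228 normalized counts per library in replicate 1 and 51909 to 132168 in replicate 2. Of 8 markers of other cell types, PTPRC was at 0, and CD3E and LUM were at no more than 1, in each of the 8 libraries. CDH5 was above 0 in 1 library, at 7, and PECAM1 lay between 2 and 32 and PDGFRB between 4 and 9. DCN reached 526 to 1217. CD68, a lysosomal gene of macrophages that epithelial cells also transcribe, was lower in replicate 2 than in replicate 1 in each gel (4222 and 2092 in soft IPN, 1220 and 324 in stiff IPN, 5017 and 1348 in soft col:rBM, 4360 and 990 in stiff col). The 3 immune markers together summed to 1221 to 5018 in replicate 1 and 324 to 2092 in replicate 2, the 3 fibroblast markers to 624 to 1221 and 530 to 1092, and the 2 endothelial markers to 2 to 19 and 8 to 32. Among the epithelial markers, the basal keratin KRT5 lay between 7417 and 19940 in replicate 1 and between 24369 and 44022 in replicate 2, and KRT14 and KRT17 were also higher in replicate 2 in each gel. KRT18, a luminal keratin, was lower in replicate 2 in 3 gels (7326 and 5720 in soft IPN, 7048 and 4423 in soft col:rBM, 5530 and 4014 in stiff col), and in stiff IPN EGFR went from 2778 to 1384 and TP63 from 961 to 937. The part of the CD68 and keratin differences in the results below was not tested.

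The largest difference in these genes lay between the replicates. S phase genes and the 7 G1/S regulators were 1.64- to 5.12-fold higher in replicate 2 than in replicate 1 where they passed the test, while most mitotic genes differed by less. For each gene, replicate 2 minus replicate 1 was estimated over the 4 gels in a limma fit with a mean per gel and the replicate number, on log2(normalized count + 1), with Benjamini-Hochberg adjustment over 13369 genes. In this fit 24 of 47 members passed an adjusted p of 0.05, all 24 of them higher in replicate 2. Of all genes tested 27.1% passed, 12.7% higher and 14.4% lower, the background for the members' calls (18% higher and 9.31% lower with libraries scaled to the same total, when 29 members were called, all 29 higher). By role, 14 of 16 S phase members, 7 of 7 G1/S regulators and 3 of 24 mitotic members were called. The group named G1/S regulators includes MYBL2 and FOXM1, which activate mitotic or G2/M genes. The median difference was 1.15 on the log2 scale for S phase members, 1.46 for G1/S regulators and 0.33 for mitotic members, against -0.01 for all genes tested. The study describes independent trials, and the labels do not say what the replicate number stands for. The p values measure how alike this difference was over the 4 gels. They do not measure how trials in general differ, since each gel holds the same pair of replicate numbers.

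**Figure D2:**
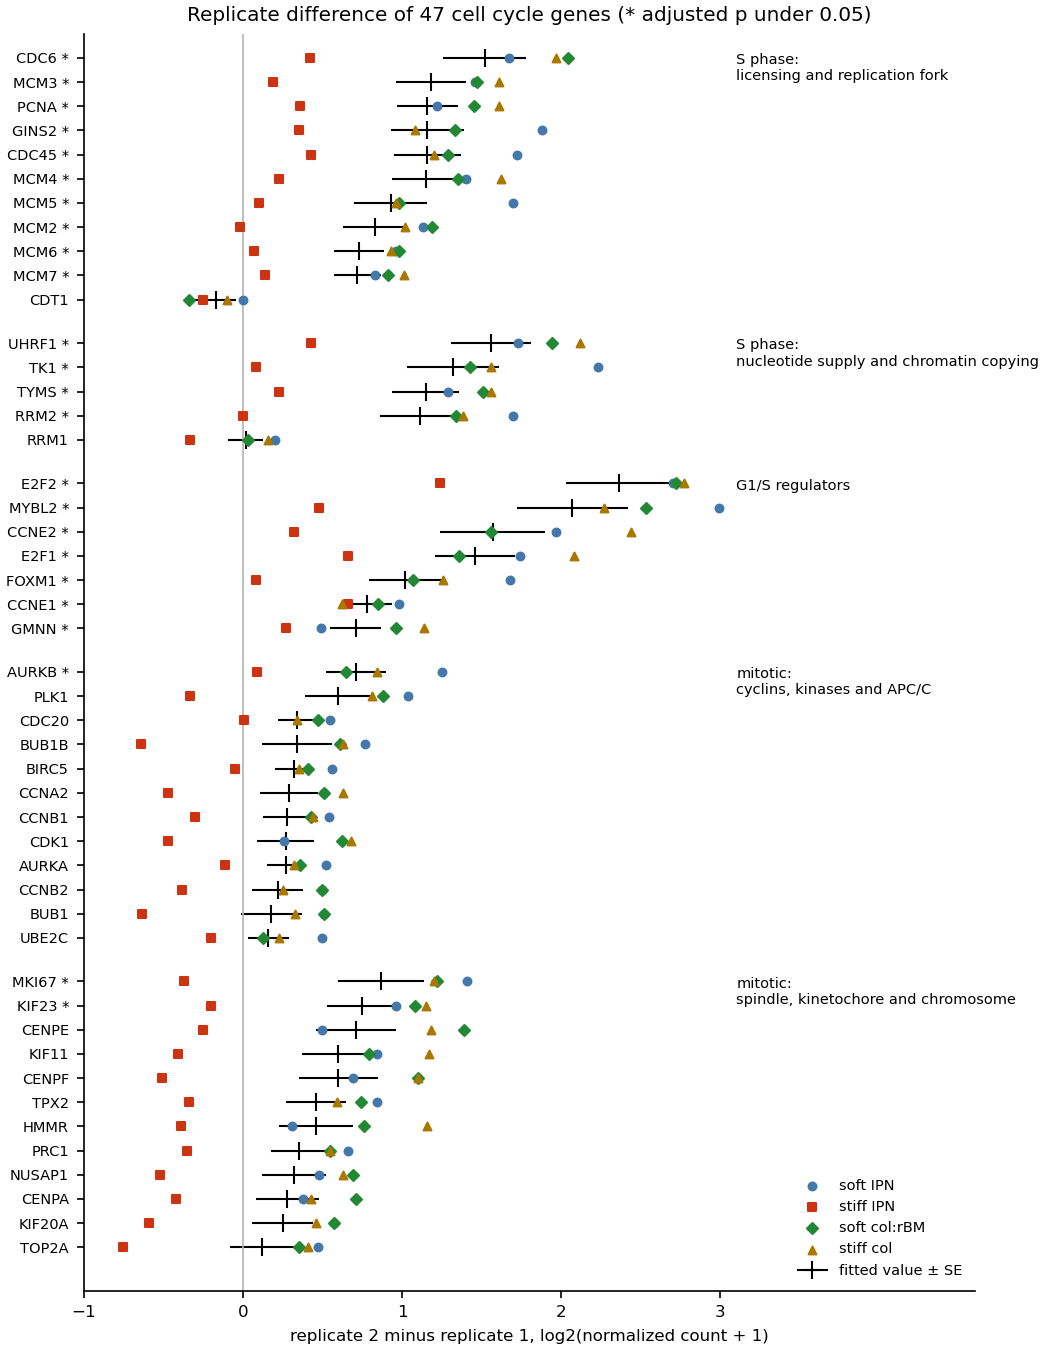
Each row is a member, with the difference between replicate 2 and replicate 1 on the log2 scale in each gel (coloured symbols) and the value fitted over the 4 gels ± SE (black). The fitted values of S phase genes other than CDT1 and RRM1 and of G1/S regulators lie between 0.71 and 2.36, those of mitotic genes between 0.12 and 0.87, and the stiff IPN symbols lie to the left of the others for most genes.

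The licensing and replication fork genes came first in this comparison. The values of a gene are given first for the soft and the stiff IPN, then for soft col:rBM and stiff col. MCM3, a subunit of the replicative helicase (hg19 chr6:52128812-52149679), had normalized counts of 732, 1374, 736 and 603 in replicate 1 and 2019, 1572, 2042 and 1838 in replicate 2. It was higher in replicate 2 in 4 of 4 gels, by 0.19 in stiff IPN and 1.46 to 1.61 in the other gels on the log2 scale, and the 2 sets of 4 libraries did not overlap. The fitted difference was 2.27-fold (log2 1.18 ± 0.22 SE, adjusted p = 0.00905). CDC6, which loads the helicase onto origins, had 144, 323, 134 and 123 in replicate 1 and 460, 431, 555 and 485 in replicate 2. Its difference of 2.88-fold (log2 1.52 ± 0.26 SE, adjusted p = 0.00688) was the largest of this group. The remaining helicase subunits had smaller differences in the same direction. MCM4 had 627, 1205, 622 and 506 in replicate 1 and 1654, 1415, 1590 and 1556 in replicate 2 (log2 1.15 ± 0.21 SE, adjusted p = 0.00852). MCM2, with 489, 589, 402 and 381 in replicate 1 and 1072, 581, 920 and 775 in replicate 2, was the subunit whose replicates overlapped, with nearly equal levels in the stiff IPN libraries (log2 0.83 ± 0.2 SE, adjusted p = 0.02). MCM5 had 210, 400, 314 and 287 in replicate 1 and 684, 428, 620 and 560 in replicate 2 (log2 0.93 ± 0.23 SE, adjusted p = 0.0205). In all of these subunits the smallest difference was that of stiff IPN. MCM6 had 523, 808, 540 and 530 in replicate 1 and 1016, 846, 1066 and 1014 in replicate 2 (log2 0.73 ± 0.16 SE, adjusted p = 0.0163). MCM7 had 1112, 1233, 1000 and 846 in replicate 1 and 1976, 1356, 1884 and 1703 in replicate 2 (log2 0.72 ± 0.15 SE, adjusted p = 0.0127). The 6 helicase subunits thus differed by 0.72 to 1.18 on the log2 scale.

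The factors that turn the loaded helicase into a fork gave similar values. CDC45, a part of the active helicase, had 82, 165, 129 and 145 in replicate 1 and 272, 223, 317 and 335 in replicate 2 (log2 1.16 ± 0.21 SE, adjusted p = 0.00793). GINS2, a subunit of the same assembly, had 87, 171, 112 and 124 in replicate 1 and 322, 218, 283 and 264 in replicate 2 (log2 1.16 ± 0.23 SE, adjusted p = 0.0115). PCNA, the sliding clamp of the polymerases, had 692, 1296, 723 and 709 in replicate 1 and 1612, 1668, 1979 and 2162 in replicate 2 (log2 1.16 ± 0.19 SE, adjusted p = 0.00645), and its 4 replicate 2 libraries lay above all replicate 1 libraries. CDT1, which acts with CDC6 in loading MCM and is degraded in S phase, stood apart from its partners. Its normalized counts were 310, 182, 322 and 239 in replicate 1 and 310, 153, 255 and 223 in replicate 2, lower in replicate 2 in 3 gels and equal in soft IPN (log2 -0.17 ± 0.13 SE, adjusted p = 0.342).

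Among the genes of nucleotide supply and chromatin copying, UHRF1, which carries DNA methylation across replication, had 265, 503, 256 and 197 in replicate 1 and 879, 678, 988 and 862 in replicate 2, a difference of 2.94-fold (log2 1.56 ± 0.25 SE, adjusted p = 0.00628). TK1, the salvage kinase for thymidine, had 169, 336, 250 and 199 in replicate 1 and 795, 354, 674 and 587 in replicate 2 (log2 1.32 ± 0.29 SE, adjusted p = 0.016), with nearly the same level in both stiff IPN libraries. TYMS, which makes thymidylate, had 379, 615, 256 and 315 in replicate 1 and 929, 721, 730 and 931 in replicate 2 (log2 1.15 ± 0.21 SE, adjusted p = 0.009). RRM2, the cell cycle regulated subunit of ribonucleotide reductase, had 936, 1552, 1159 and 909 in replicate 1 and 3038, 1556, 2938 and 2368 in replicate 2 (log2 1.11 ± 0.25 SE, adjusted p = 0.0158). RRM1, the stable subunit of the same enzyme, did not pass, with 1675, 1677, 1805 and 1603 in replicate 1 and 1922, 1337, 1845 and 1795 in replicate 2 (log2 0.02 ± 0.11 SE, adjusted p = 0.929). The subunits of this enzyme therefore gave 1.11 and 0.02 on the log2 scale in the same libraries, a contrast between genes that was not itself tested.

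Each of the 7 G1/S regulators was higher in replicate 2, in 4 of 4 gels. E2F2, an activating E2F (hg19 chr1:23832930-23857725), had 9, 32, 6 and 4 in replicate 1 and 64, 77, 45 and 33 in replicate 2. Its difference of 5.12-fold (log2 2.36 ± 0.33 SE, adjusted p = 0.00427) was the largest of all 47 members. Its lowest values are near the floor of 3 reads, and its counting error is the largest of the members. MYBL2 codes for B-Myb, which joins MuvB to activate mitotic genes. It had 135, 427, 154 and 166 in replicate 1 and 1079, 595, 894 and 805 in replicate 2, a difference of 4.19-fold (log2 2.07 ± 0.35 SE, adjusted p = 0.00702). Cyclin E2 (CCNE2), which drives entry into S phase with CDK2, had 20, 85, 36 and 23 in replicate 1 and 81, 106, 108 and 129 in replicate 2 (log2 1.57 ± 0.33 SE, adjusted p = 0.0135). E2F1, another activating E2F, had 34, 101, 45 and 32 in replicate 1 and 116, 160, 117 and 139 in replicate 2 (log2 1.46 ± 0.25 SE, adjusted p = 0.00711). In E2F1 as in E2F2 the replicates did not overlap. FOXM1, an activator of G2/M genes, had 380, 572, 518 and 389 in replicate 1 and 1223, 606, 1090 and 930 in replicate 2 (log2 1.02 ± 0.23 SE, adjusted p = 0.0158). Cyclin E1 (CCNE1) had 60, 102, 75 and 70 in replicate 1 and 119, 162, 136 and 108 in replicate 2 (log2 0.78 ± 0.16 SE, adjusted p = 0.0137). GMNN, the inhibitor of CDT1, had 269, 413, 236 and 237 in replicate 1 and 377, 499, 461 and 523 in replicate 2 (log2 0.71 ± 0.16 SE, adjusted p = 0.0173). The replicate 1 level in stiff IPN was the highest replicate 1 level of each of these 7 genes.

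The mitotic genes gave smaller values. Among the kinases, cyclins and partners of the anaphase-promoting complex, AURKB, the kinase of the chromosomal passenger complex, was the one called. It had 155, 195, 199 and 159 in replicate 1 and 370, 208, 313 and 285 in replicate 2 (log2 0.71 ± 0.19 SE, adjusted p = 0.0294). PLK1, which drives mitotic entry and spindle assembly, had 529, 512, 535 and 505 in replicate 1 and 1090, 408, 988 and 887 in replicate 2 and came next in size, without passing (log2 0.6 ± 0.21 SE, adjusted p = 0.0695). The 10 other members of the group had fitted differences between 0.16 (UBE2C) and 0.34 (CDC20 and BUB1B), with adjusted p between 0.0624 and 0.517. Cyclin B1 (CCNB1), for example, had 1271, 1433, 1460 and 1281 in replicate 1 and 1853, 1164, 1974 and 1738 in replicate 2, and CDK1, its kinase, 900, 1167, 879 and 946 in replicate 1 and 1081, 843, 1355 and 1516 in replicate 2. In both genes replicate 2 was higher in 3 gels and lower in stiff IPN.

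Of the spindle, kinetochore and chromosome genes, MKI67 and KIF23 were called. MKI67, which codes for the Ki-67 antigen that coats mitotic chromosomes (hg19 chr10:129894923-129924687), had 1166, 1827, 1209 and 1084 in replicate 1 and 3097, 1416, 2826 and 2488 in replicate 2 (log2 0.87 ± 0.27 SE, adjusted p = 0.0454). KIF23, a kinesin of the central spindle, had 356, 672, 396 and 410 in replicate 1 and 695, 586, 836 and 910 in replicate 2 (log2 0.75 ± 0.22 SE, adjusted p = 0.0367). The other 10 members ranged from 0.12 for TOP2A, the topoisomerase that untangles sister chromatids, to 0.71 for CENPE, a kinetochore motor, with adjusted p between 0.0721 and 0.681. TOP2A had 2639, 2454, 2676 and 2378 in replicate 1 and 3659, 1461, 3402 and 3153 in replicate 2.

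Counted by overlap, the S phase genes and G1/S regulators again stood above the mitotic genes. In 13 of 16 S phase members and 5 of 7 G1/S regulators the lowest replicate 2 library lay above the highest replicate 1 library, as it did in 1 of 24 mitotic members (AURKB), 19 of 47 in all. Over all genes tested this held for 9.75%, and the opposite for 10%, with no member in the opposite state.

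The difference between S phase and mitotic genes kept its sign in each gel. The S phase median minus the mitotic median of replicate 2 minus replicate 1 on the log2 scale was 0.88 in soft IPN and 0.54 in stiff IPN, and 0.72 in soft col:rBM and 0.68 in stiff col, and 0.82 in the fit over the gels. The parts differed, however. In soft IPN, soft col:rBM and stiff col the S phase medians were 1.43, 1.34 and 1.29 and the mitotic medians 0.55, 0.62 and 0.61, with 24 of 24 mitotic members higher in replicate 2 in each of these gels. In stiff IPN the S phase median was 0.17 and the mitotic median -0.37, with 22 of 24 mitotic members lower in replicate 2. No p is given for these medians, since genes are not replicates.

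**Figure D3:**
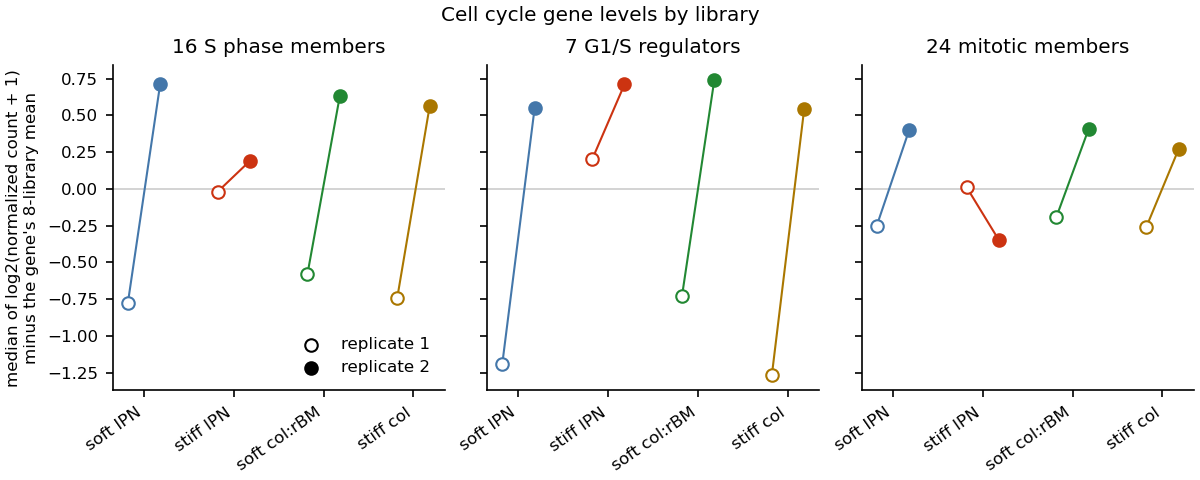
Points give, for each library, the median over S phase members, G1/S regulators or mitotic members of log2(normalized count + 1) minus the gene's mean over 8 libraries, with replicate 1 open, replicate 2 filled and a line joining the libraries of a gel. S phase medians go from -0.78, -0.58 and -0.74 to 0.71, 0.63 and 0.56 in 3 gels and from -0.02 to 0.19 in stiff IPN, where the mitotic median goes from 0.01 to -0.35.

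Stiff IPN was set against the other gels in a fit with a term for its own replicate difference, a comparison that was added after the values had been seen. In this limma fit 28 of 47 members were called, all 28 with a lower replicate difference in stiff IPN, against 4.56% of all genes tested (2.69% lower and 1.88% higher). They were 11 of 16 S phase members, 15 of 24 mitotic members and 2 of 7 G1/S regulators (MYBL2 and FOXM1), and all 47 values were negative, with a median of -1.12 on the log2 scale against -0.01 for all genes tested. MKI67 showed -1.64 ± 0.17 SE (adjusted p = 0.0101), MYBL2 -2.12 ± 0.29 (adjusted p = 0.0138), RRM2 -1.47 ± 0.2 (adjusted p = 0.0137) and MCM3 -1.32 ± 0.17 (adjusted p = 0.0135). The same term for soft IPN, soft col:rBM or stiff col called 0 of 47 members and 0% of all genes. At an unadjusted p of 0.05 it reached 0 members, against 495, 80 and 118 of 13369 genes tested. In these fits the stiff IPN pair adds to the residual spread (MKI67 SE 0.66, 0.67 and 0.68 against 0.17). The 0 calls therefore cannot show whether these gels depart from the others. The count for stiff IPN depends on the other gels, since it was 43 without the pair of soft IPN libraries, 22 without stiff col and 1 (MKI67) without soft col:rBM, against 32.1%, 2.69% and 0.307% of all genes tested. It was 0 of 47, and 0% of all genes, when limma was run without its variance trend and robust options. An unadjusted p under 0.05 was then reached by 39 members. The share over all genes is not given for that setting, so this count cannot be read against a background. With the trend and robust options, 44 members and 3468 of 13369 genes tested were under that p. With 2 residual degrees of freedom, the calls for stiff IPN rest on the variance shared over genes.

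The replicate comparison depended on the gels in turn. Leaving out 1 library of a gel removes that gel from the replicate estimate, and 45 of 47 members were then called without a stiff IPN library, among them 24 of 24 mitotic members, against 43.7% of all genes tested. Without a soft IPN, soft col:rBM or stiff col library, 7, 12 and 10 members were called, of which 0 were mitotic, against 12%, 9.18% and 9.07% of all genes tested, and the S phase medians were 0.95, 1.05 and 1.01 with mitotic medians of 0.26, 0.27 and 0.25. All of these calls were higher in replicate 2.

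Further genes of the cell cycle were described from lists of other S phase and mitotic genes, of G1 cyclins, kinases and E2Fs, and of inhibitors and quiescence genes. Of 32 other S phase genes, 22 were called between replicates, all 22 higher in replicate 2, with a median of 0.86 on the log2 scale, against 27.1% of all genes tested (12.7% higher). FEN1, the flap endonuclease of Okazaki fragments, had 321, 600, 365 and 258 in replicate 1 and 1044, 995, 921 and 837 in replicate 2 (log2 1.36 ± 0.17 SE, adjusted p = 0.00289). POLE, the leading strand polymerase, had 375, 460, 413 and 382 in replicate 1 and 694, 649, 826 and 759 in replicate 2 (log2 0.84 ± 0.12 SE, adjusted p = 0.00466). CLSPN, the fork checkpoint mediator, had 39, 141, 37 and 42 in replicate 1 and 213, 214, 207 and 220 in replicate 2 (log2 1.96 ± 0.32 SE, adjusted p = 0.00599). In these 3 genes the replicates did not overlap. Of 44 other mitotic genes, 14 were called (31.8%), all 14 higher, with a median of 0.52, a share near the 27.1% of all genes called in either direction and above the 12.7% called higher. The smallest p values belonged to PKMYT1, CDCA5 and SPC25. PKMYT1, which holds CDK1 inactive before mitosis, had 69, 122, 66 and 47 in replicate 1 and 262, 208, 217 and 246 in replicate 2 (log2 1.68 ± 0.25 SE, adjusted p = 0.0049). CDCA5, the cohesion factor sororin, had 278, 327, 292 and 220 in replicate 1 and 637, 419, 568 and 529 in replicate 2 (log2 0.94 ± 0.16 SE, adjusted p = 0.00734). SPC25, a kinetochore subunit, had 39, 107, 45 and 54 in replicate 1 and 152, 122, 154 and 181 in replicate 2 (log2 1.4 ± 0.3 SE, adjusted p = 0.0134).

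The G1 list had 10 of 20 genes called, 8 higher and 2 lower (CDK7 and TFDP2), with a median of 0.33, against 12.7% higher and 14.4% lower of all genes tested. E2F7, an atypical E2F that represses E2F targets, had 107, 161, 104 and 107 in replicate 1 and 324, 221, 351 and 321 in replicate 2 (log2 1.34 ± 0.22 SE, adjusted p = 0.00655). The phosphatase gene CDC25A had 155, 237, 142 and 143 in replicate 1 and 319, 327, 290 and 290 in replicate 2 (log2 0.88 ± 0.15 SE, adjusted p = 0.00683), and E2F3 316, 387, 318 and 270 in replicate 1 and 453, 579, 494 and 569 in replicate 2 (log2 0.7 ± 0.13 SE, adjusted p = 0.00874). Cyclin D1 (CCND1), which answers mitogens early in G1, had 2430, 3841, 2990 and 2213 in replicate 1 and 3339, 4265, 3613 and 3264 in replicate 2 (log2 0.36 ± 0.11 SE, adjusted p = 0.0396). MYC did not pass, with 7395, 7034, 4391 and 4275 in replicate 1 and 5286, 5104, 5219 and 4721 in replicate 2 (log2 -0.14 ± 0.15 SE, adjusted p = 0.521).

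Inhibitors and quiescence genes went both ways. Of 16 tested, 4 were higher in replicate 2 (BTG2, RBL1, CDKN2C and E2F4) and 4 lower (RBL2, FOXO3, CDKN1C and E2F5), with a median of -0.05, against 12.7% and 14.4% of all genes tested. RBL2, the p130 pocket protein of DREAM, had 1353, 1371, 1486 and 1511 in replicate 1 and 844, 660, 862 and 947 in replicate 2 (log2 -0.8 ± 0.1 SE, adjusted p = 0.00354). FOXO3, a transcription factor of resting cells, had 2063, 1158, 2046 and 1746 in replicate 1 and 1160, 911, 1092 and 1082 in replicate 2 (log2 -0.69 ± 0.12 SE, adjusted p = 0.00678). BTG2, an antiproliferative gene, had 630, 449, 365 and 339 in replicate 1 and 983, 920, 854 and 782 in replicate 2 and was higher in replicate 2 (log2 1.03 ± 0.13 SE, adjusted p = 0.00289). The CDK inhibitor p57 (CDKN1C) had 760, 290, 741 and 408 in replicate 1 and 330, 348, 198 and 142 in replicate 2 (log2 -1.09 ± 0.31 SE, adjusted p = 0.0342), so that it was lower in replicate 2 in 3 gels and higher in stiff IPN. Its replicate difference in stiff IPN was 1.8 ± 0.29 SE above that of the other gels (limma, adjusted p = 0.0206). The p53 target CDKN1A (p21) had 6264, 4135, 6104 and 5030 in replicate 1 and 5634, 7513, 4605 and 4378 in replicate 2. It was not called between replicates (log2 0.03 ± 0.2 SE, adjusted p = 0.937), but its difference in stiff IPN was 1.11 ± 0.19 above the others (adjusted p = 0.0261). In that limma test of stiff IPN, 4 of 16 genes of this list were called, 2 higher and 2 lower, against 4.56% of all genes tested. The 2 lower were RB1 (log2 -1.03 ± 0.17 SE, adjusted p = 0.0224) and RBL1 (log2 -1.55 ± 0.33 SE, adjusted p = 0.0427). CDKN1B (p27) had 502, 449, 445 and 522 in replicate 1 and 414, 376, 471 and 496 in replicate 2 and passed neither test. CDKN2A and CDKN2B were at 0 in all 8 libraries, which allows at most 3 reads, or 3.7 normalized counts, per library.

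**Figure D4:**
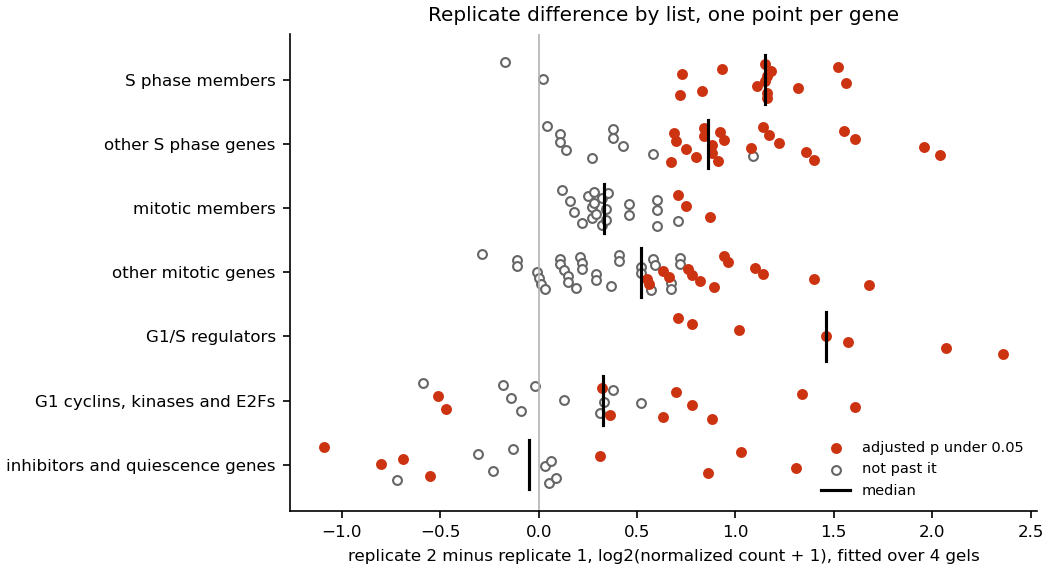
Points are genes of each list at their fitted difference between replicate 2 and replicate 1 on the log2 scale, filled where the adjusted p was under 0.05, with a black bar at the list's median. The medians are 1.15 and 0.86 for the S phase lists, 0.33 and 0.52 for the mitotic lists, 1.46 for G1/S regulators, 0.33 for the G1 list and -0.05 for the inhibitors.

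Stiff against soft IPN asks what calcium crosslinking of the same proteins does to these genes. The study, using DESeq2, reported genes that differed between these gels, some of them of the cell cycle and mitosis. It also reported that stiff IPNs promoted proliferation, measured by EdU. With 1 mean per gel here, 0 of 47 members and 0% of all genes were called in limma. As no gene passed in this fit, its result for the members cannot be set against the study's calls. An unadjusted p under 0.05 was reached by 2 members (CDT1 and UBE2C) and by 1245 of 13369 genes tested. This fit leaves the replicate difference in its residual spread. Since the replicate numbers pair the libraries, the fit with the replicate block is given beside it. It called 1 of 47 members, CDT1, against 3.82% of all genes tested. CDT1 was lower in stiff IPN in both replicates, at 182 against 310 and 153 against 310 (log2 -0.89 ± 0.23 SE, adjusted p = 0.491 without and 0.0409 with the block). Its libraries did not overlap between these gels. The block fits with other pseudocounts or filters kept CDT1, with adjusted p between 0.0401 and 0.0444. The call was lost when libraries were scaled to the same total or the variance trend and robust options were left out. It was also lost when any library of soft IPN, soft col:rBM or stiff col was left out.

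The direction of most other members turned between the replicates. In replicate 1, 40 of 47 members were higher in stiff than in soft IPN, with a median of 0.50 on the log2 scale, and in replicate 2, 40 of 47 were lower, with a median of -0.64. For all genes tested the medians were 0 and -0.01. S phase members had medians of 0.91 and -0.45, mitotic members 0.28 and -0.73, and G1/S regulators 1.54 and 0.38. The S phase median minus the mitotic median was thus positive both times, at 0.63 and 0.28 (0.42 in the fit). Without the soft IPN library of replicate 1 this value was 0.02, and without that of replicate 2 it was 0.96.

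**Figure D5:**
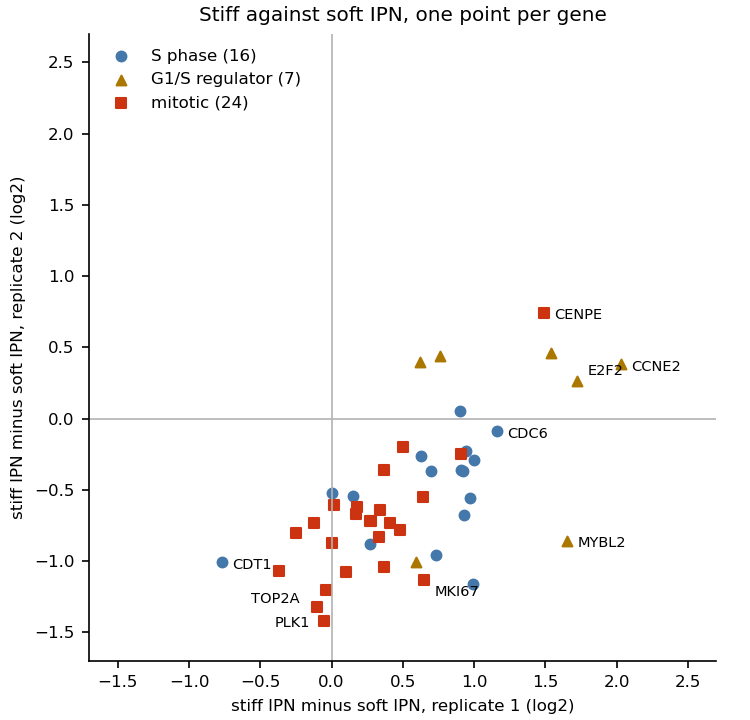
Each point is a member, at its stiff minus soft IPN difference on the log2 scale in replicate 1 (horizontal) and replicate 2 (vertical). Most points lie right of 0 and below 0, S phase genes to the right of most mitotic genes, and CENPE, PCNA and 5 G1/S regulators lie above 0 in both.

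MKI67 had 1827 in stiff against 1166 in soft IPN in replicate 1 and 1416 against 3097 in replicate 2, opposite directions in the 2 replicates (0.65 in replicate 1 and -1.13 in replicate 2 on the log2 scale). CDC6 gave 1.16 in replicate 1 and -0.09 in replicate 2 and UHRF1 0.92 in replicate 1 and -0.37 in replicate 2. TOP2A gave -0.1 in replicate 1 and -1.32 in replicate 2, and PLK1 -0.05 in replicate 1 and -1.42 in replicate 2. For UBE2C, the ubiquitin-conjugating enzyme of the anaphase-promoting complex, the values were 765, 590, 868 and 690 in replicate 1 and 1081, 514, 947 and 812 in replicate 2, a difference of -0.37 in replicate 1 and -1.07 in replicate 2. These 3 genes were lower in stiff IPN in both replicates, and UBE2C had log2 -0.72 ± 0.22 SE (adjusted p = 0.493 without and 0.0648 with the block). CENPE was the mitotic exception, with 184, 519, 169 and 122 in replicate 1 and 261, 437, 443 and 278 in replicate 2. It was higher in stiff than in soft IPN by 1.49 in replicate 1 and 0.74 in replicate 2, and its log2 1.12 ± 0.53 SE had an adjusted p of 0.548 without and 0.113 with the block over 4 gels. In a block fit of the IPN libraries alone, CENPE was the only member called (adjusted p = 0.047), and CDT1 was not. That fit called 2.33% of all genes, leaves few residual degrees of freedom and was chosen after the data were seen. Among the regulators, CCNE2 gave 2.03 in replicate 1 and 0.38 in replicate 2 and E2F1 1.54 in replicate 1 and 0.46 in replicate 2, with adjusted p of 0.165 and 0.138 with the block.

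With the block the comparison between the IPNs depended on which stiff IPN library was used. Without its replicate 1 library 25 members were called, all 25 lower in stiff IPN, against 20.1% of all genes tested (11.4% lower). Without its replicate 2 library 17 were called, 16 of them higher, against 8.17% of all genes tested (3.61% higher). Of the other lists, the block fit called BTG1, an antiproliferative gene lower in stiff IPN at 3667, 2514, 3606 and 3026 in replicate 1 and 3415, 2105, 2989 and 2473 in replicate 2 (log2 -0.62 ± 0.2 SE, adjusted p = 0.498 without and 0.0464 with the block). It also called CDK4, the partner of D cyclins, at 2548, 1704, 2010 and 1814 in replicate 1 and 3040, 1452, 2441 and 2123 in replicate 2 (log2 -0.82 ± 0.2 SE, adjusted p = 0.491 and 0.04). No gene of the other S phase and mitotic lists was called. Those with the smallest p were RFC4 (log2 0.36 ± 0.21 SE), DBF4 (log2 0.44 ± 0.29 SE) and ORC1 (log2 -0.58 ± 0.44 SE) of the S phase list and NCAPD2 (log2 -0.9 ± 0.23 SE), KIF2C (log2 -0.81 ± 0.28 SE) and CDC25C (log2 -0.7 ± 0.37 SE) of the mitotic list. NCAPD2, a condensin subunit, was lower in stiff IPN in both replicates and had an adjusted p of 0.0521 with the block. In the remaining lists CCNG2 (log2 -0.79 ± 0.29 SE) and FOXO3 (log2 -0.59 ± 0.41 SE) followed BTG1, and CCND1 (log2 0.51 ± 0.26 SE) and CCNH (log2 0.23 ± 0.22 SE) followed CDK4. For the genes fixed in any case, CDKN1A gave log2 -0.09 ± 0.31 SE, CDKN1B log2 -0.15 ± 0.2 SE, CDKN1C log2 -0.66 ± 0.73 SE and MYC log2 -0.06 ± 0.25 SE, none of which passed.

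Stiff col against stiff IPN called 0 of 47 members without the block, when 0% of all genes passed, and 0 of 47 with it, when 2.47% passed. Without the block, CENPE alone of the members had an unadjusted p under 0.05, as did 838 of 13369 genes tested. In replicate 1, 42 of 47 members were lower in stiff col (median -0.54 on the log2 scale), and in replicate 2, 43 of 47 were higher (median 0.45). The fitted S phase median was -0.11 and the mitotic median 0.21. Their difference, -0.32, was negative in both replicates (-0.44 and -0.29). CENPE, at 519 and 437 in stiff IPN and 122 and 278 in stiff col, had the largest mitotic value (log2 -1.37 ± 0.53 SE, adjusted p = 0.741 without and 0.0952 with the block), and E2F2, at 32 and 77 against 4 and 33, the largest of all (log2 -1.96 ± 1.32, adjusted p = 0.851 and 0.0735). CDC6 and MCM4 led the licensing genes at -0.61 and -0.56, UHRF1 and TYMS the nucleotide group at -0.5 and -0.3, and E2F1 followed E2F2 at -0.91. PLK1 (0.55), UBE2C (0.44) and TOP2A (0.53) were on the higher side in stiff col, although PLK1 and TOP2A differed by no more than 0.05 in replicate 1. Of the listed genes, CCND2, a D cyclin, was called with the block (log2 -1.22, adjusted p = 0.0262).

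Stiff col against soft col:rBM compares a dense collagen gel with a softer one that also holds rBM, and its values were close in both replicates. With all gels fitted, 0 of 47 members and 0% of all genes were called without the block, and likewise with it. The members leaned to lower values in stiff col, with medians of -0.16 for S phase, -0.14 for mitotic and -0.19 for G1/S members, and 36 of 47 were lower in each replicate, against a median of 0 for all genes tested. The S phase minus mitotic value was -0.03 in the fit and 0.01 in each replicate. RRM2, at 1159 and 2938 in soft col:rBM and 909 and 2368 in stiff col, differed by -0.35 and -0.31 in the 2 replicates. CENPE (169 and 443 against 122 and 278) gave -0.47 and -0.67, CENPF, a kinetochore protein (1190 and 2546 against 895 and 1926), -0.41 and -0.4, and FOXM1 (518 and 1090 against 389 and 930) -0.41 and -0.23. When the libraries of these gels alone were fitted with the block, these 4 members were called, all 4 lower (adjusted p = 0.0137 for RRM2, 0.0133 for CENPE, 0.00365 for CENPF and 0.0426 for FOXM1). That fit also called 7.07% of all genes tested (4.02% lower), so 4 of 47 is near the share called in either direction. It leaves few residual degrees of freedom and was chosen after the data were seen. The other members among the 2 largest values of their role list were CDT1 (-0.31), MCM3 (-0.22), TYMS (0.32), E2F2 (-0.46), UBE2C (-0.28) and CDC20, the activator of the anaphase-promoting complex (-0.24), each with an adjusted p of 1.

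Soft col:rBM against soft IPN, which adds collagen-1 to a soft rBM gel in place of alginate, called 0 of 47 members without the block and 0 with it, against 0% and 0.0224% of all genes. The medians were 0.06 for S phase and 0 for mitotic members, and 0.03 and -0.05 was the S phase minus mitotic value in the replicates. The 2 largest values of each role list belonged to CCNE2 (log2 0.61 ± 0.96 SE), E2F2 (-0.51 ± 1.32), TYMS (-0.46 ± 0.68), CDC45 (0.43 ± 0.68), CENPE (0.32 ± 0.53), MCM2 (-0.25 ± 0.53), KIF23 (0.21 ± 0.51), BUB1B (0.19 ± 0.39), CCNA2 (0.18 ± 0.32) and TK1 (0.16 ± 0.82). Each of these values is smaller than its SE in the fit without the block, and with the block those of CCNE2, E2F2, TYMS and CDC45 exceeded it (SE 0.47, 0.46, 0.3 and 0.29), each with an adjusted p of 1.

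The stiffness difference in collagen gels minus that in IPNs called 0 of 47 members without the block (0% of all genes) and 0 with it (0.015% of all genes). The S phase median was -0.22, the mitotic median 0.16 and the G1/S median -0.81, with 43 of 47 members negative in replicate 1 and 40 of 47 positive in replicate 2. CENPE (log2 -1.68 ± 0.75 SE, -1.96 and -1.41 in the replicates) and E2F2 (-1.45 ± 1.87) had the largest values, and the others among the 2 largest of their role list were CCNE2 (-1.39), CDC6 (-0.69), PLK1 (0.61), CDT1 (0.58), TOP2A (0.57), UHRF1 (-0.56), UBE2C (0.45) and RRM2 (-0.21). A test of any difference among the 4 gels called 0 of 47 members without the block, when 0% of all genes passed, and 0 with it, when 1.58% passed. The members with an unadjusted p under 0.05 in that test were CDT1 and UBE2C without the block, against 702 of 13369 genes tested. Between single pairs of gels without the block, CENPE was the other member under that p, in stiff col against stiff IPN. With the block, 10 members were under it in stiff against soft IPN and 6 in stiff col against stiff IPN. All genes tested gave 3300 and 2530 of 13369. In the test of any gel with the block it was 5 members, against 2645 of 13369 genes tested.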

How the data were processed

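RNA-seq was measured in MCF10A cells in 4 hydrogels with 2 libraries each. Reads were trimmed by the authors and mapped to hg19 (with Bowtie2 in the study's methods, TopHat2 2.0.13 in the submitters' processing notes), and those mapped well and uniquely were counted per gene with HTSeq. The gene annotation and the strand setting are not given in the sources used here. The deposited values are a signal, normalized counts, that the authors made by scaling each library by 1 factor and rounding, and 0 value columns were left unused.

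Genes with at least 10 normalized counts in at least 2 libraries were tested (13369), on log2(normalized count + 1), using R 4.3.3, limma 3.58.1 and, for robust fits, statmod 1.5.0, with variance trend and robust moderation, 1 mean per gel, and Benjamini-Hochberg adjustment at 0.05. A fold change is on this scale and understates the change of low genes. A quasi-likelihood count test had been planned for read counts and was replaced because the values were already scaled. The factors were read from the values, whose 8 libraries have totals of 14306848 to 17999273. The fit with the replicate number as a block was the alternative for gels and the main fit for replicate 2 against replicate 1. In each of 6 pairs of gels the replicate differences correlated across genes (r 0.278 to 0.819), so the numbers pair the libraries, although the labels do not say what they mark. P values measure the spread between these libraries. The ± SE values come from the same fits and measure that spread too. The floor of 3 reads covers counting error only. The members and lists were chosen with earlier results of these data known. Named were the 2 members of each role list with the largest difference per comparison, every called member, the 3 genes of each further list with the smallest p between replicates and between the IPNs, and 7 fixed genes (CDKN1A, CDKN1B, CDKN1C, CDKN2A, CDKN2B, CCND1 and MYC). CCNB1 and CDK1 between replicates and MKI67 between the IPNs were added after their values were seen. Positions come from GENCODE 44 lifted to hg19 and promoters from RefSeq (GRCh38.p14). The fits were run on simulated data with independent genes and changes planted in well-expressed genes. The replicate difference seen here over many genes was not simulated, so that run does not show how the fits perform on these data. Tables and plots were made in Python 3.11.15 (matplotlib 3.10.9, pandas 2.3.3). An epithelial marker gene of the original list is not reported here.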

Additional observations from a re-analysis of the deposited data

Results flagged for a closer look

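The replicate difference of stiff IPN departed from that of the other 3 gels in 28 members, by the test of that difference. The values, stiff IPN minus the others on the log2 scale, were as follows. For licensing and fork genes they were CDC6 at -1.48, MCM3 at -1.32, MCM4 at -1.22, MCM2 at -1.13, PCNA at -1.06, MCM6 at -0.89 and MCM7 at -0.78. For nucleotide supply and chromatin copying they were TK1 at -1.66, UHRF1 at -1.5, RRM2 at -1.47 and TYMS at -1.22. For G1/S regulators they were MYBL2 at -2.12 and FOXM1 at -1.25. For mitotic cyclins and kinases they were BUB1B at -1.31, PLK1 at -1.24, BUB1 at -1.07, CCNA2 at -1.02, CDK1 at -0.99 and CCNB1 at -0.77. For spindle, kinetochore and chromosome genes they were MKI67 at -1.64, CENPF at -1.47, KIF11 at -1.35, KIF23 at -1.26, TOP2A at -1.16, KIF20A at -1.12, NUSAP1 at -1.12, TPX2 at -1.07 and PRC1 at -0.93. Each rests on 1 pair of stiff IPN libraries, and no cause was tested. Groups of 2 libraries were too small for a check of single outlying libraries.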

How the results depend on the processing

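Alternatives were pseudocounts of 0.5 and 5, no filter or 10 in each library, median-of-ratios rescaling, equal totals, no variance trend and robust options, the compared gels alone, shorter lists and each library left out. Those combined with the replicate block, and those for the term of stiff IPN, were chosen after seeing the data. Where nothing else is said the cause was not tested. For stiff against soft IPN, members called were 0 without and 1 with the replicate block, also 1 with the block and each of pseudocount 0.5 or 5, no filter, 10 in each library, median-of-ratios rescaling or these gels alone, and 0 with the block and equal totals or without these options. Stiff col against soft col:rBM had 4 with the block and these gels alone. The block changed no other call of a member. With the block and 1 library left out, members called reached 0 to 25 for stiff against soft IPN, 0 to 17 for stiff col against stiff IPN, 0 to 6 for the stiffness difference between gel types (2 without stiff IPN replicate 2, CENPE and MCM3, and 6 without its replicate 1, KIF20A, MKI67, NUSAP1, PLK1, TOP2A and TPX2) and 0 to 21 for any gel (21 and 11 without stiff IPN replicate 1 and 2). With the first and the second stiff IPN library left out, the shares of all genes called were 16.6% and 5.42% for stiff col against stiff IPN, 5.05% and 0.307% for the stiffness difference and 15.2% and 4.27% for any gel. Between replicates, members called were 18 to 29 under other settings (29 with equal totals, which moved the median of all genes by 0.13) and 7 to 45 with 1 library left out. For the replicate difference of stiff IPN they were 28. They became 12 with equal totals (1.48% of all genes tested) and 0 without these options (0%). Without the pair of soft IPN, soft col:rBM and stiff col libraries they became 43, 1 and 22. The S phase minus mitotic value between replicates stayed between 0.69 and 0.86. With 1 library left out it ran from 0.02 to 0.96 for stiff against soft IPN, from -0.69 to -0.12 for stiff col against stiff IPN, from -0.27 to 0.40 for stiff col against soft col:rBM, from -0.44 to 0.42 for soft col:rBM against soft IPN and from -0.98 to 0.02 for the stiffness difference. Reversed values were 0.30 and 0.40 (stiff col against soft col:rBM without soft col:rBM replicate 2 and stiff col replicate 1), -0.28 and -0.44 (soft col:rBM against soft IPN without soft col:rBM replicate 2 and soft IPN replicate 1) and 0.02 (stiffness difference without soft IPN replicate 1). For stiff col against soft col:rBM it was -0.02 with pseudocount 5, -0.02 with 11 S phase genes and -0.03 without CCNA2, TOP2A and MKI67. A lone library left in a gel is assumed to vary like the other gels. E2F2 lay at 4 to 9 normalized counts in 3 replicate 1 libraries.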
